A study of Homo sapiens with 4 samples.

Results

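Transcripts of 9 human genes for enzymes on the route from squalene to cholesterol were examined in SK-LMS-1 cells, a leiomyosarcoma line that the labels describe as uterine. The genes were taken by symbol (SQLE, LSS, CYP51A1, TM7SF2, MSMO1, NSDHL, EBP, SC5D and DHCR7), and all 9 were found among the 19381 genes of the count table. RNA sequencing covered 2 libraries of untreated cells and 2 libraries of cells given 50 µM of 2-D08 over 48 h. This flavone blocks transfer of the protein modifier SUMO to its targets. No vehicle is named for the untreated cells, and no separate cultures are named within a group, so every p-value is set against library-to-library spread that could be purely technical. Of the 9 genes, 5 fell with treatment (LSS, CYP51A1, TM7SF2, MSMO1 and DHCR7), where 16.9% of all tested genes fell. The transcripts of SQLE, NSDHL, EBP and SC5D did not pass the test in either direction.

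Squalene, the linear product of the mevalonate pathway, is oxidised to an epoxide and folded into lanosterol, the first sterol. Lanosterol then loses its methyl groups at carbons C14 and C4, its double bonds are moved or reduced, and cholesterol results. These enzymes sit in the membrane of the endoplasmic reticulum. Their genes are classic targets of SREBP2, a transcription factor that is released from that membrane when sterols run low and that acts on promoters together with NF-Y, which binds the CCAAT box, and SP1, which binds GC boxes.

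The upstream sequences of 3 genes that fell and 1 that did not pass the test are shown because the genes of this pathway are known to share a promoter arrangement. They come from RefSeq (GRCh38.p14), run 5′ to 3′ in the direction of the gene, and are limited to the longest part of the 250 bases before the RefSeq start that lies in no GENCODE 29 exon. Position -1 is the base just before the start, and capitals mark CCAAT on either strand (ATTGG on the other strand).

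LSS, chr21:46228825-46229024, minus strand, positions -250 to -51: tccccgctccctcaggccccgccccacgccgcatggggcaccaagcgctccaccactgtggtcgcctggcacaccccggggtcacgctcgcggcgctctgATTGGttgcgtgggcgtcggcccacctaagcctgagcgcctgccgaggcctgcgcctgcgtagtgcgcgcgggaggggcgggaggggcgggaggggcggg
MSMO1, chr4:165327419-165327622, plus strand, positions -250 to -47: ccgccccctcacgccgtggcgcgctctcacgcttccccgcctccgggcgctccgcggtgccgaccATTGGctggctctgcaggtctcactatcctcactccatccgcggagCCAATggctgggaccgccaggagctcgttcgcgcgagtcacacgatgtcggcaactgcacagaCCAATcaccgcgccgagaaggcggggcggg
DHCR7, chr11:71448436-71448643, minus strand, positions -250 to -43: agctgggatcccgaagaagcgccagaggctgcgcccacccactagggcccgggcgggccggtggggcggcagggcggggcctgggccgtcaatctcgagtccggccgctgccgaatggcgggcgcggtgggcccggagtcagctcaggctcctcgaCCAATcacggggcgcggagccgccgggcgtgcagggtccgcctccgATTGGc
NSDHL, chrX:152830813-152830966, plus strand, positions -250 to -97: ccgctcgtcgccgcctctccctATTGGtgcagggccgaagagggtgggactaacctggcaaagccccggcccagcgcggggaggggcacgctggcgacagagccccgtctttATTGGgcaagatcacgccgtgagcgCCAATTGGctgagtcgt

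Of the 9 genes, 8 matched the RefSeq promoter table, all but SQLE. CCAAT was present on either strand within 250 bases upstream in 7 of these 8, against 11240 of 35116 RefSeq promoters, and CYP51A1 had none in that window. Only 1 RefSeq start was searched per gene. For CYP51A1, EBP, SC5D and DHCR7 the whole window lies inside the GENCODE gene span given below. Among the genes that fell, MSMO1 had 4 copies, DHCR7 had 2, and LSS and TM7SF2 had 1 each. Among the genes that did not pass the test, NSDHL had 5 copies, EBP had 3 and SC5D had 1. NSDHL carries 2 of its copies as one overlapping palindrome, seen above as CCAATTGG, and its window as printed holds 4 of the 5, as that of MSMO1 holds 3 of 4. In these 8 genes the number of CCAAT copies did not follow the order of the fold changes. A link of CCAAT or GC box copies to the response was not tested. The GC box, GGGCGG on either strand, was found in 7 of the 8 genes, against 42.6% of all promoters. It had 6 copies in LSS, 4 each in DHCR7 and TM7SF2, 2 in MSMO1, 1 each in CYP51A1, EBP and SC5D, and 0 in NSDHL. Unlike CCAAT, GC box copies were thus most numerous in the genes with the larger falls, as a description of these 8 genes only. The sterol regulatory element core TCACNCCAC, with N for any base, was searched on both strands and was in 0 of the 8 windows and 0.883% of all promoters. The same search found no match upstream of INSIG1, listed below among SREBP regulators and targets, or of HMGCS1 from the mevalonate pathway. A search for this exact core therefore cannot show that the 8 genes lack such an element. None of the CCAAT and GC box matches in the 8 genes overlapped a match of another motif. A match is a stretch of letters and not a measured binding site.

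**Figure D1:**
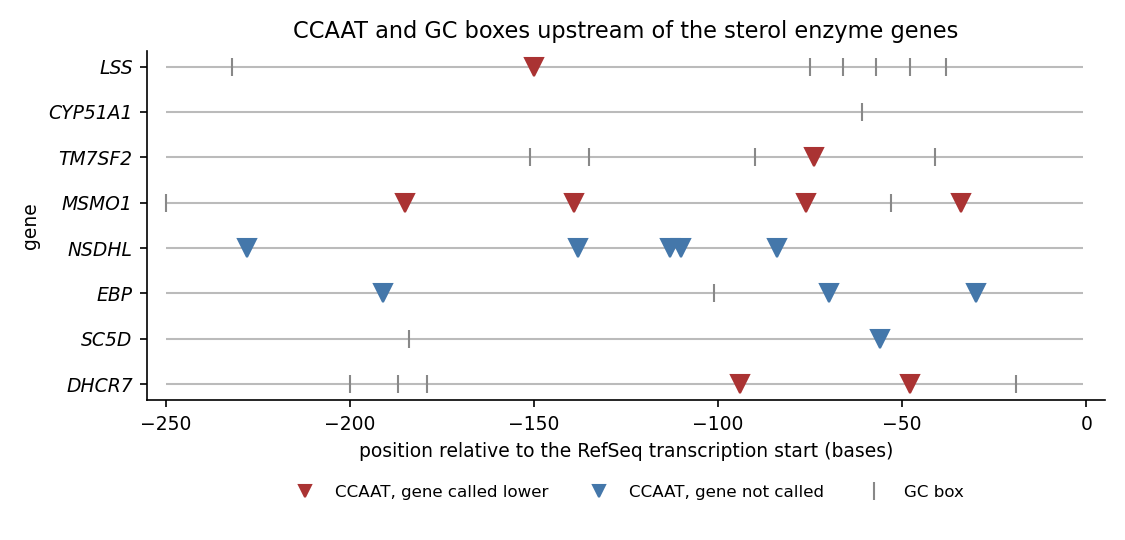
CCAAT boxes (triangles) and GC boxes (ticks) on either strand in the 250 bases upstream of the RefSeq start of 8 sterol enzyme genes, with position in bases on the x axis and 1 gene per row. Triangles of genes that fell with treatment are red and those of genes that did not pass the test are blue; NSDHL, which did not pass, carries the most CCAAT copies (5).

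Library totals ran from 14796702 to 31300635 counts. In untreated replicate 1 and treated replicate 2, 89% and 88.8% of nonzero counts were even numbers, against 48.4% and 47.9% in the other two, and the reason was not tested. With those 2 libraries halved, the same 5 of the 9 genes fell and no log2 fold change of the 9 moved by more than 0.06. Markers of the labelled lineage and of other cell types were read too, and their part in the changes reported here was not tested. Of 9 smooth muscle markers DES had 0 counts in all libraries and MYOCD had 0 in the untreated ones, 3 were lower and 1 higher, and their sum was 802 and 826 CPM in untreated and 659 and 699 CPM in treated cells. The sums were 339 and 299 against 274 and 226 CPM for 6 epithelial markers (3 lower, CDH1 at 0 in untreated cells). They were 61.9 and 66.5 against 98.3 and 99.2 CPM for 5 immune markers (2 higher), and at most 2.08 CPM for 4 endothelial ones (1 higher, KDR at 0 in untreated cells). These calls are by edgeR, where 16.9% of all tested genes were lower and 17.1% higher. The test covered 7 smooth muscle, 5 epithelial, 2 immune and 2 endothelial markers. By DESeq2, 2 epithelial markers were lower and 0 endothelial ones higher, and the smooth muscle and immune counts were the same. In such bulk libraries fewer cells of a type and less RNA per cell cannot be told apart.

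In the untreated cells the pathway was expressed at every step, and the levels differed widely between steps. TPM, the deposited abundance scaled for transcript length, is used to compare one gene with another. CYP51A1 had the highest level at 91.5 ± 1.85 TPM (SD, n = 2), followed by DHCR7 at 68.2 ± 2.18 and SC5D at 52.7 ± 2.17. MSMO1 (49.2 TPM) and NSDHL (47.2 TPM) came next and their libraries overlapped. SQLE lay at 31.2 ± 1.89 TPM, and LSS (25.1 TPM) and EBP (22.6 TPM) again overlapped. TM7SF2 was lowest, at 6.85 ± 1.499 TPM.

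After treatment CYP51A1 stayed at the top with 66.4 ± 4.38 TPM (SD, n = 2), while DHCR7 came after SC5D and NSDHL. LSS and TM7SF2 were the lowest of the 9, at 9.25 ± 1.88 and 2.19 ± 0.40 TPM. MSMO1 (29.3 TPM), EBP (27.2 TPM) and SQLE (27.1 TPM) lay close together: the libraries of EBP overlapped both those of MSMO1 and those of SQLE. Summed over the 9 genes, the level was 399 and 390.3 TPM in the untreated libraries and 298 and 293 TPM in the treated ones. The share of that sum held by LSS went from 7.18% and 5.54% to 3.55% and 2.703%, and that of SC5D from 12.8% and 13.9% to 17.04% and 20.5%.

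**Figure D2:**
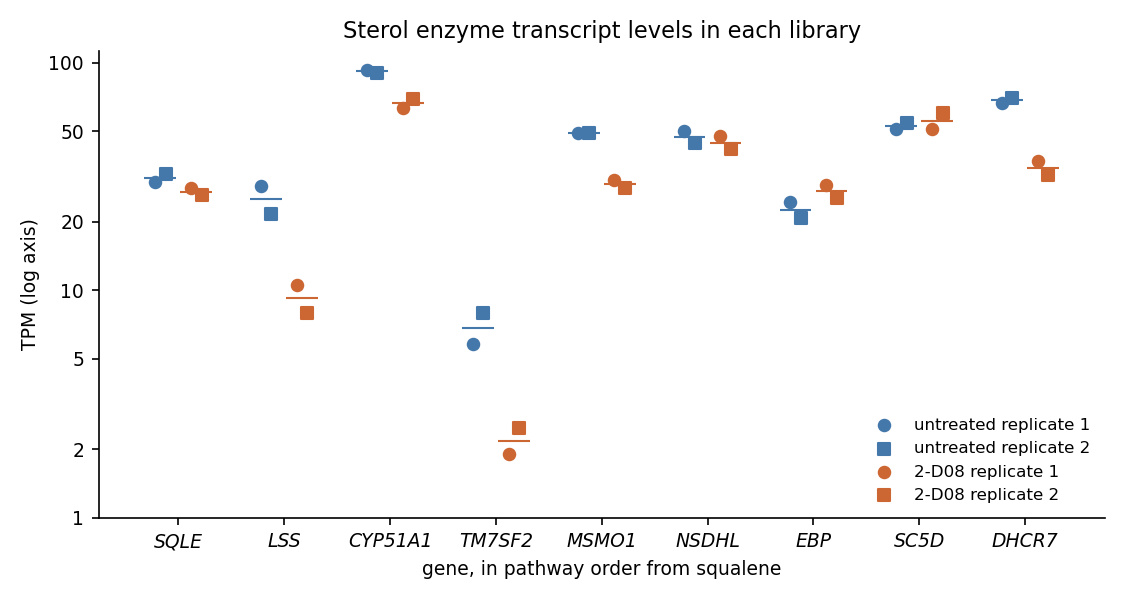
Level of each of the 9 genes in every library, in TPM on a log axis, with the genes in pathway order and the group means as lines. The treated points lie well under the untreated ones for LSS, TM7SF2, MSMO1 and DHCR7, whereas those of NSDHL and SC5D overlap between groups.

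Whether each transcript changed was asked with edgeR's quasi-likelihood test on the counts of all 12906 genes that passed a low-count filter. The 9 sterol enzyme genes were all among them. Levels beside these tests are CPM, the counts scaled to a common library size with TMM factors for composition, and a gene with a Benjamini-Hochberg adjusted p under 0.05 counts as changed. Of the 9 genes, 5 were lower, where 16.9% of all tested genes were lower. None of the 9 was called higher by edgeR (0 at an unadjusted p under 0.05, and 0 by DESeq2), where 17.1% of all tested genes were higher. The median log2 fold change was -0.36 over the 9 genes and 0.00 over all genes tested.

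The first enzyme, squalene epoxidase, is encoded by SQLE on chromosome 8 (124998497 to 125022283; gene positions are from GENCODE 29 on GRCh38) and adds the oxygen that makes squalene epoxide. Untreated libraries held it at 58.7 and 63.9 CPM, treated libraries at 54.0 and 54.3 CPM. Both treated libraries lay under both untreated ones, but the difference was small. The log2 fold change was -0.18 ± 0.10 (SE; edgeR adjusted p = 0.197), with a 95% interval from -0.39 to 0.04.

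LSS encodes lanosterol synthase, which folds the epoxide into lanosterol (chromosome 21, 46188141 to 46228824). It fell from 67.4 and 62.1 CPM to 27.9 and 22.7 CPM. The groups were far apart, and LSS was 2.58-fold lower with treatment (log2 fold change -1.37 ± 0.12 SE, 95% interval -1.63 to -1.11, edgeR adjusted p = 2.64e-06). Its interval does not overlap that of SQLE, the step just before it. The TPM ratio of LSS to SQLE within a library was 0.958 and 0.664 in untreated cells and 0.378 and 0.303 in treated cells.

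CYP51A1, the cytochrome P450 that removes the C14 methyl group of lanosterol (chromosome 7, 92112151 to 92134803), fell by a small amount. Its CPM went from 191 and 195 to 140.4 and 161, and the groups did not overlap. The log2 fold change was -0.36 ± 0.10 (SE; 95% interval -0.56 to -0.15, edgeR adjusted p = 0.011). This call rests on having both untreated libraries: the adjusted p was 0.125 without untreated replicate 1 and 0.139 without untreated replicate 2.

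The double bond left at C14 is reduced by either of a pair of related enzymes, TM7SF2 and LBR. TM7SF2 (chromosome 11, 65111845 to 65116384) had 4.38 and 4.24 CPM in untreated cells and 1.66 and 1.17 CPM in treated cells. It had the largest fall of the 9 genes in this fit, 3.15-fold, and also the widest interval, since it rests on 130, 70, 25 and 36 counts (log2 fold change -1.66 ± 0.29 SE, interval -2.29 to -1.03, edgeR adjusted p = 0.00075). On the authors' deposited transformed values, which compress low genes, the same difference was -0.61. LBR, which also encodes an anchor of chromatin at the nuclear envelope, had 84.4 and 89.5 CPM against 76.5 and 80.9 CPM. Its log2 fold change of -0.14 (interval -0.34 to 0.06, edgeR adjusted p = 0.266) does not overlap the interval of TM7SF2. Per length, LBR was the more abundant of the pair in every library, and the TPM ratio of TM7SF2 to LBR went from 0.181 and 0.221 to 0.0666 and 0.0822.

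Removal of the C4 methyl groups is shared by an oxidase, MSMO1, a dehydrogenase, NSDHL, a ketoreductase, HSD17B7, and the scaffold protein ERG28. Of these 4 transcripts only MSMO1 passed the test. MSMO1 (chromosome 4, 165327623 to 165343160) fell from 70.7 and 74.5 CPM to 44.2 and 44.3 CPM, with less spread inside each group than between them. The log2 fold change was -0.71 ± 0.10 (SE; interval -0.93 to -0.50, edgeR adjusted p = 0.000129).

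NSDHL (chromosome X, 152830967 to 152869729) had 47.4 and 43.3 CPM without and 46.3 and 42.4 CPM with treatment, and the groups overlapped. Its log2 fold change was -0.04 (interval -0.27 to 0.20, edgeR adjusted p = 0.817), which lies apart from the interval of MSMO1. HSD17B7 was at low level in all libraries (3.79 to 5.18 CPM; log2 fold change 0.02, interval -0.51 to 0.54). ERG28 had 45.2 and 45.8 CPM against 38.1 and 40.3 CPM (-0.21, interval -0.44 to 0.02, edgeR adjusted p = 0.139). Within the C4 group the oxidase therefore differed in response from the dehydrogenase, while the intervals of ERG28 and HSD17B7 include 0.

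EBP encodes the isomerase that moves a ring double bond (chromosome X, 48521158 to 48528716). Both treated libraries of EBP lay above both untreated ones, at 19.7 and 18.7 against 16.8 and 14.1 CPM. The log2 fold change of 0.31 ± 0.15 (SE; interval -0.01 to 0.62) did not pass the test (edgeR adjusted p = 0.128). Its paralog EBPL, which lacks that isomerase activity, had 22.5 and 24.2 CPM without and 21.6 and 22.9 CPM with treatment (-0.06, edgeR adjusted p = 0.73). NSDHL and EBP are both on chromosome X. Of 469 tested genes on that chromosome 16.6% were lower, against 16.9% over all genes.

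SC5D, the desaturase that puts in the next double bond (chromosome 11, 121292453 to 121308694), also did not pass. It had 93.4 and 98.1 CPM in untreated cells and 95.5 and 109 CPM in treated cells, and the groups overlapped (log2 fold change 0.10 ± 0.10 SE, interval -0.11 to 0.31, edgeR adjusted p = 0.449). FAXDC2, of the same hydroxylase family as SC5D and MSMO1, fell from 3.78 and 3.21 CPM to 0.864 and 0.778 CPM. Its log2 fold change of -2.11 (edgeR adjusted p = 0.000368) rests on low counts and was -0.97 with limma on log2(TPM + 1) and -0.67 on the transformed values.

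DHCR7 encodes the reductase that turns 7-dehydrocholesterol into cholesterol. DHCR7 (chromosome 11, 71428193 to 71452868) fell from 67.7 and 66.1 CPM to 37.8 and 28.3 CPM. It was 2.04-fold lower (log2 fold change -1.03 ± 0.13 SE, interval -1.31 to -0.75, edgeR adjusted p = 5.35e-05), well apart from the interval of SC5D, the step before it. The TPM ratio of DHCR7 to SC5D was 1.30 and 1.29 in untreated cells and 0.724 and 0.531 in treated cells, so the order of these neighbours turned round.

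**Figure D3:**
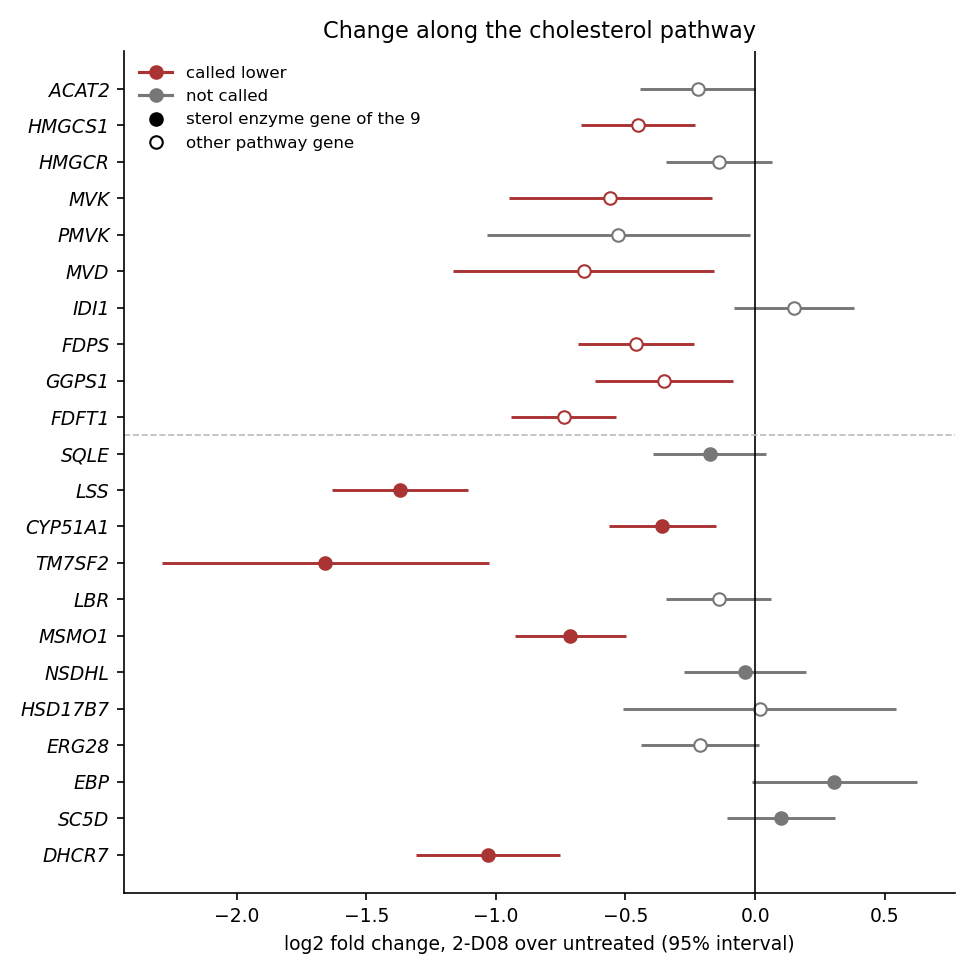
Log2 fold change of treated over untreated cells with its 95% interval for the genes of cholesterol synthesis, from acetyl-CoA (top) to the DHCR7 step (bottom); the dashed line is squalene, filled points are the 9 sterol enzyme genes and red marks genes called lower. TM7SF2, LSS and DHCR7 lie farthest left, and the intervals of SQLE, NSDHL, EBP and SC5D reach across 0.

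The 9 genes thus did not share one size of change. Fitted log2 fold changes ran from -1.66 to 0.31, and the enzymes whose transcripts fell stood next to enzymes whose transcripts did not pass the test at 3 places in the sequence: SQLE and LSS, MSMO1 and NSDHL, and SC5D and DHCR7. The treated libraries also differed from each other for some members. LSS and DHCR7 were lower in treated replicate 2 than in replicate 1 by CPM and by TPM, whereas CYP51A1 and SC5D were higher there by both. TM7SF2 was lower in treated replicate 2 by CPM (1.66 and 1.17 in replicates 1 and 2) but higher by TPM (1.90 and 2.47). It rests on 25 and 36 counts there, the 36 from a library with 88.8% even counts.

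Several of these enzymes draw electrons from shared partners or bind a common haem protein. Of these 5 partners 1 was higher and 0 were lower by edgeR (0 lower at an unadjusted p under 0.05 and 0 by DESeq2). For this and the lists that follow, the shares over all tested genes were 17.1% higher and 16.9% lower by edgeR. By DESeq2, 1810 of the 12906 genes were higher and 1777 were lower. POR, the reductase that serves SQLE and CYP51A1, had 46.4 and 44.8 CPM without and 49.3 and 39.8 CPM with treatment. CYB5A, CYB5B and CYB5R3, which carry electrons to MSMO1 and SC5D, gave log2 fold changes of 0.27, 0.18 and -0.03, none past the test. PGRMC1, a haem protein that binds CYP51A1, rose from 300 and 314 CPM to 413 and 403 CPM (0.41 ± 0.09 SE, edgeR adjusted p = 0.00259). Dropping untreated replicate 1 or 2 took the PGRMC1 adjusted p to 0.134 or 0.058, and limma on log2(TPM + 1) gave 0.0513, so this rise is not firm.

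The steps before squalene moved down as well. Of 10 genes from acetyl-CoA to squalene 6 were lower and 0 higher by edgeR (0 higher at an unadjusted p under 0.05; 3 lower and 0 higher by DESeq2), with a median log2 fold change of -0.46. FDFT1, which makes squalene and hands it to SQLE, fell from 168 and 170.4 CPM to 108 and 95.4 CPM (-0.74 ± 0.09 SE, edgeR adjusted p = 6.6e-05), a change whose interval (-0.94 to -0.53) lies apart from that of SQLE. FDPS, the farnesyl diphosphate synthase, fell by 0.46 on the log2 scale (edgeR adjusted p = 0.00409). With untreated replicate 1 left out, FDPS missed the threshold (adjusted p = 0.0843).

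Among 10 regulators and non-enzyme targets of SREBP, 7 were lower and 0 higher by edgeR (0 higher at an unadjusted p under 0.05; 6 lower and 0 higher by DESeq2), with a median of -0.97. SREBF2, which encodes SREBP2, had 102 and 94.6 CPM in untreated and 47.4 and 39.7 CPM in treated cells (edgeR adjusted p = 3.49e-06). INSIG1 (-2.04) and SREBF1 (-2.69, and -1.99 on the transformed values) were lower too. LSS and DHCR7 thus moved by about as much as SREBF2, with overlapping intervals, whereas the interval of CYP51A1 lay nearer 0 than those 3.

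Ubiquitin ligases of the endoplasmic reticulum, which control the stability of sterol proteins, moved both ways: of 4, RNF145 rose (0.56, edgeR adjusted p = 0.000382), RNF139 fell (-0.39, edgeR adjusted p = 0.0144) and the other two did not pass. The call of RNF139 was lost without either untreated library (adjusted p of 0.239 and 0.0892) and with limma on both TPM scales (0.0895 and 0.0881). Of 6 enzymes that use sterols, 2 passed the low-count filter and were tested. SOAT1, which esterifies cholesterol for storage, rose from 71.1 and 71.2 CPM to 91.8 and 105 CPM (0.47, edgeR adjusted p = 0.00226). On both TPM scales SOAT1 missed the threshold (adjusted p of 0.15 and 0.146). CYP27A1 did not pass (-0.55, edgeR adjusted p = 0.137), and SOAT2 and CH25H had 0 counts in all 4 libraries. CYP46A1 and CYP7B1 had too few counts to be tested.

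As a description of the shared profile, each gene's 4 log2 CPM values were centred on their mean and compared with the median of the 9 genes by Euclidean distance. Among 10453 other genes at 5 CPM or more on average, SGF29 (distance 0.01), USF3 (0.02), SH3D19 (0.03) and VPS8 (0.03) came nearest. That median is close to CYP51A1 (distance 0.0009), and LSS and TM7SF2 lay far from it (1.06 and 1.30), so it describes the middle of the list and not its steepest members. The log2 fold changes of these 4 nearest genes ran from -0.36 to -0.38.

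Some reads of 5 of the 9 genes could also have come from other genes, because how reads were assigned to genes is not stated. In GENCODE 29, LSS is overlapped on the other strand by 2 antisense genes, over 801 and 5096 bases, and DHCR7 by 1, over 3484 bases. CYP51A1 shares its strand with 2 overlapping protein-coding gene models, over 22645 and 3030 bases of its 22653-base span. It also overlaps an antisense gene by 200 bases and has 3 processed pseudogenes. On their own strands TM7SF2 overlaps VPS51 by 16 bases and EBP a misc_RNA gene model by 327 bases. The levels of these 5 genes are uncertain for that reason. The overlaps are of whole gene spans, introns included, so they do not measure how many reads were affected. Of the overlapping genes and pseudogenes, only VPS51 is in the count table.

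**Figure D4:**
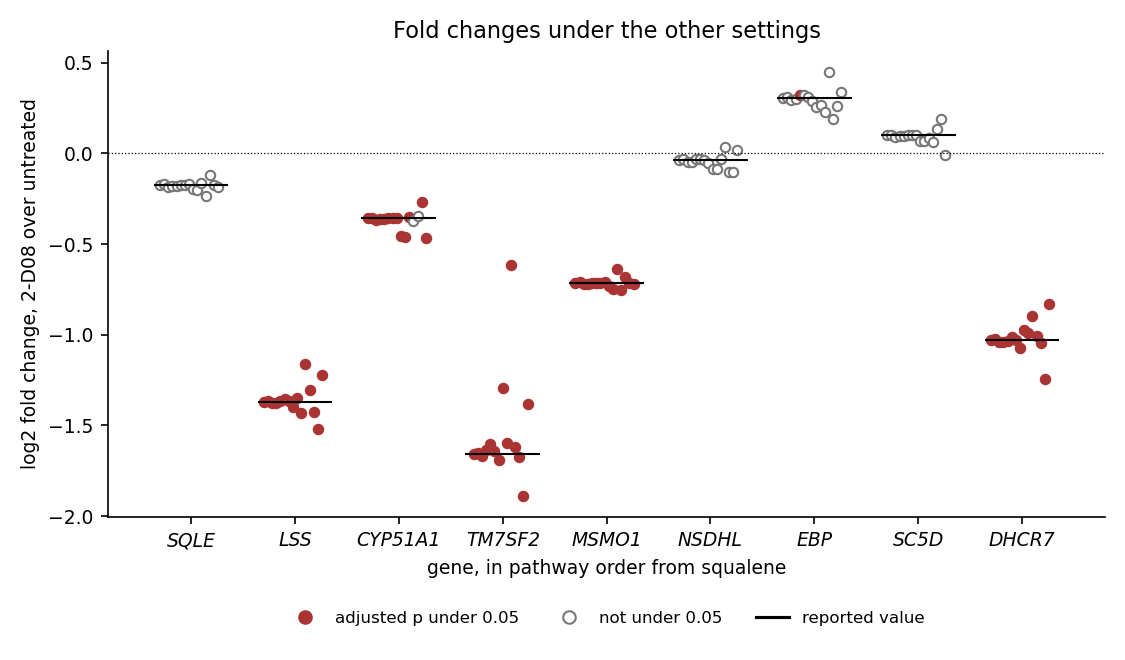
Log2 fold change of each of the 9 genes under up to 15 other settings (points; filled red where the adjusted p was under 0.05), with the reported value as a line and the genes in pathway order. LSS, MSMO1 and DHCR7 stayed past the threshold in all 15, TM7SF2 in all 14 that tested it and CYP51A1 in 13; EBP passed in 1 and SQLE, NSDHL and SC5D in 0.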

How the data were processed

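The submitters' processing notes name STAR 2.7.8a, cutadapt 3.4, GRCh38 and DESeq2, and no source used here states the read counter, strand setting or gene annotation. Per gene, the authors deposited whole-number read counts, which were tested as deposited. The deposited TPM values, scaled by the authors for length and depth, gave levels between genes. Another deposited table is named as normalised counts but holds log2-like values, and served only as an alternative.

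Counts were filtered with edgeR 4.0.16 (filterByExpr, minimum count 10; 12906 genes left) and scaled by TMM. They were tested with its robust quasi-likelihood test, two-sided, with Benjamini-Hochberg adjustment over all tested genes, in R 4.3.3. Standard errors and 95% intervals come from the F statistic. The intervals use the residual plus prior degrees of freedom of the fit. Their width therefore also draws on the spread of other genes and not on each gene's own libraries alone. The script was tested on simulated data. Alternatives used limma 3.58.1 and DESeq2 1.42.0.

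Members, gene lists and tests were chosen with earlier results of these data known. Named genes were the 9 members, their branch, partners and paralogs, SREBF2, INSIG1, the 2 smallest p-values of each other pathway list at 1 CPM or more, and the 4 nearest profiles. Some genes that this rule takes are not reported here. The 2 libraries per group leave 2 residual degrees of freedom. Depth was 14796702 to 31300635 counts.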

Additional observations from a re-analysis of the deposited data

How the results depend on the processing

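The other settings were DESeq2, limma-voom, limma on the transformed values or on log2 of TPM plus 1 or 0.1, RLE factors, unadjusted library sizes, dropping the filter, a floor of 5 CPM on the mean, halved counts, the replicate block and leaving out each library, which assumes that the lone library varies like the other group. Of 134 values for the 9 genes, 128 kept direction and side of the threshold. The 5 falls stayed at 5 except 4 without either untreated library, where CYP51A1 was lost, and 4 under the floor of 5 CPM, where TM7SF2 was not tested. Replicate numbers are not stated to pair libraries, and deviations of same-numbered libraries correlated at 0.16. With the replicate block 1 of the 9 genes was higher, EBP (0.32, adjusted p = 0.0312). Over fits leaving out a library, fold changes that turned sign ran from -0.10 to 0.033 for NSDHL, -0.0073 to 0.19 for SC5D, -0.20 to 0.25 for HSD17B7, -0.20 to 0.11 for POR and -0.073 to 0.011 for CYB5R3. HSD17B7 was -0.0095 with limma-voom and -0.082 and -0.10 on the TPM scales. None of these 5 genes passed the test in any setting, and the cause was not tested. Of 372 values for the 25 other named genes, 25 lost a call, 2 gained one and 8 turned sign. Over all genes 4376 changed, against 1598 and 1608 on the TPM scales and 1866 and 2695 without untreated replicate 1 or 2, and, the other way, 6239 with the replicate block and 6077 without treated replicate 1.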
